A study of Jatropha curcas with 4 samples.

Results

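A total of 401 gene models of Jatropha roots held similar normalised values in waterlogged (WS) and non-stress (NS) libraries and are described here as candidate reference genes. They were chosen from the deposited value of each gene in each of the 4 libraries, by a mean from 30 to 300 and a ratio of the highest to the lowest value under 1.4. They made up 401 of the 5817 genes with a mean in this range (6.89%) and of the 17410 genes in the deposited table (2.30%). Since these same values chose the members, their steadiness is given as a description and was not tested. Whole roots came from 30-day-old, six-leaf-stage Jatropha curcas plants that stood for 24 h in pots under water (WS, 2 libraries) or for 24 h in a container without water (NS, 2 libraries). All plants were grown outdoors from seed of the same Thai origin, and both groups share this background. Each library was made from poly(A) mRNA, and the sources used here do not give the number of plants per library. The labels call the 2 libraries of a group biological replicates.

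A reference gene is a transcript whose level serves as the divisor in real-time PCR, where the amount of every other transcript is expressed relative to it. The divisor should vary little between the conditions compared, since any change in it is carried into each ratio. Genes of protein synthesis and the cytoskeleton are common choices in plants. Actin (Jcr4S01082.10) was among the genes that the study assayed by real-time PCR, as a target and not as the divisor. The study picked it as a gene with limited change and reported that waterlogging did not induce it.

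Values are CPM, the share of reads of a library, here over library sizes corrected with TMM, a scaling that assumes most genes do not differ between libraries. They are shares of a library, so the RNA content of a root is not measured, and fewer cells of a type and less RNA per cell cannot be told apart in whole roots. The summed counts ranged from 1204502 (NS replicate 2) to 6110438 (NS replicate 1). A value of 30 CPM stood for 113 and 71.3 reads in WS replicates 1 and 2, and for 196 and 39.7 reads in NS replicates 1 and 2. The steady genes had a median of 284 and 181 reads in the WS libraries and of 483 and 102 reads in the NS libraries. Counting alone therefore gave a median relative SD of 5.93% and 7.43% in WS and of 4.55% and 9.90% in NS. The 7 photosynthesis genes in the annotated rows at hand, taken as markers of green tissue, summed to 68.6 and 37.5 CPM in WS and to 76.9 and 65.0 CPM in NS. The genes did not move together. The largest, Jcr4S00013.180, had 20.2 and 15.2 CPM in WS, against 39.2 and 39.3 CPM in NS. In Jcr4S00002.180 the order was reversed, with 9.58 and 4.63 CPM in WS, against 2.75 and 0 CPM in NS. None of these 7 genes was at 0 in all libraries, and their part in the values of the steady genes was not tested. Root cell type markers are not paired with gene IDs in the sources used here, so the tissue label was checked only in this way.

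Actin was set beside the steady genes first. It forms the microfilaments of the cytoskeleton. Whether its real-time PCR primers match this gene alone was not checked, since no genome sequence was at hand. They are shown as listed in the supplementary tables of the study (capitals mark an ATG at the 5′ end of the forward primer).
Actin-F: ATGgctgatgctgaggatatcc
Actin-R: aatccagcacgataccagttgtacg
The actin gene lies on scaffold Jcr4S01082 from 4770 to 6160 (plus strand) of genome release 4.5, with 4 coding exons over 1391 bp and a coding length of 1134 bp.

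Actin had 779.5 and 825 CPM in WS, against 1501 and 1354 CPM in NS (2930 and 1959 reads in WS and 9813 and 1791 reads in NS). Both WS libraries were below both NS libraries, and the highest value was 1.93 times the lowest. The fitted log2 fold change of actin was -0.83 ± 0.41 (SE, 2 libraries each, quasi-likelihood test of edgeR, adjusted p = 0.299), so the difference did not pass the threshold of 0.05. It ranged from -1.06 to -0.74 over 13 alternative fits, with adjusted p from 0.190 to 0.645. A p above the threshold with 2 libraries per group does not show that the level was the same in both conditions.

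Actin did not meet the rule. The mean of its 4 values, 1115 CPM, lay above the range, and its ratio exceeded the limit as well. Of the 17410 genes, 2827 (16.2%) had a lower ratio than actin, and 1663 of these were among the 5817 genes of the range (28.6% of the 5817).

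**Figure D1:**
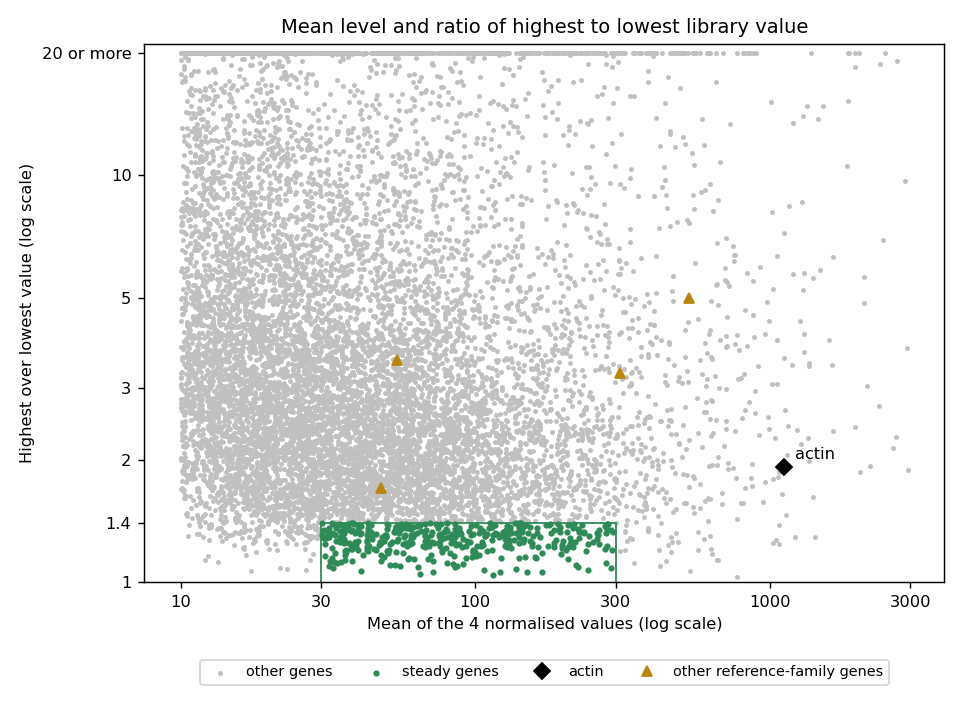
Mean of the 4 normalised values (x axis, CPM, log scale) and ratio of the highest to the lowest value (y axis, log scale, ratios of 20 or more drawn at 20) of single genes. The green points are the 401 steady genes, all within the box from 30 to 300 CPM and under 1.4; actin lies to the right of the box at a ratio of 1.93, and triangles mark the other reference-family genes. Genes outside the axis range or with a library at 0 are not drawn.

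The ratio of the steady genes ran from 1.04 to just under 1.4, with a median of 1.29, while the median of all genes of the range was 2.58. Their coefficient of variation over the 4 libraries had a median of 11.5% (1.87% to 18.4%), while that of all genes of the range was 41.1%. The variance of their read numbers was a median of 2.75 times what counting alone gives, and for 59 of the 401 it was smaller than that. Among all genes of the range this variance had a median of 33.4 times the counting variance. The highest value fell in WS replicate 1 for 128 steady genes, in WS replicate 2 for 90, in NS replicate 1 for 91 and in NS replicate 2 for 92. The lowest fell in WS replicate 2 for 123 and in NS replicate 1 for 107, so no library held most of the extremes.

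None of the 401 steady genes passed edgeR's quasi-likelihood test between WS and NS, where 4.37% of all genes tested passed (760 genes, with 427 or 2.45% of all genes higher and 333 or 1.91% lower in WS), a number that was 0 without either NS library. In the same test, the unadjusted p was under 0.05 in 3459 of the 17410 genes and in none of the 401. DESeq2 called 1695 genes and the likelihood ratio test of edgeR 1986, again with none of the 401. The rule used the same values, and nothing is read from these counts. Their fitted log2 fold changes ran from -0.42 to 0.43 with a median of 0.02, against a median of 0.01 over all genes tested, and their standard errors from 0.41 to 0.55. Both WS values were above both NS values in 73 steady genes (18.2%, against 25.7% of all genes tested) and below them in 77 (19.2%, against 26.8%). In the other 251, the WS and NS values overlapped.

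Across the 401 genes, the mean of WS over the mean of NS ran from 0.745 to 1.35, with a median of 1.01. The higher over the lower of the WS libraries had a median of 1.13, and the same ratio between the NS libraries had a median of 1.12. The geNorm measure M, the SD over libraries of the log2 ratio of a gene to each other steady gene, averaged over those genes, ran from 0.161 to 0.293 with a median of 0.220. Against the same 401 genes, M was 0.507 for actin, outside the range of the steady genes. The same library values chose the 401, so low M among them and a higher M of actin follow largely from the rule. Dividing by another gene cancels the library scaling, so M is the same under every scaling.

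The 10 genes with the lowest ratio had means from 40.8 to 242 CPM, not corrected for gene length, and no description is paired with any of their IDs in the sources used here. Jcr4S06887.20 had 113 and 114 CPM in WS, against 118 and 114 CPM in NS (424 and 271 reads in WS and 770 and 151 reads in NS), a ratio of 1.04. It is a model of 4 coding exons on scaffold Jcr4S06887 from 10997 to 14001 (plus strand), with a coding length of 426 bp within 3005 bp. Jcr4S05922.20 had 64.7 and 64.8 CPM in WS, against 63.3 and 66.5 CPM in NS, a ratio of 1.05. This is the only one of the 10 without an intron, with 1 coding exon of 393 bp on scaffold Jcr4S05922 from 12038 to 12430 (plus strand). Its 88 reads in NS replicate 2 give a 95% exact Poisson interval of 53.4 to 82.0 CPM, which covers counting error only and is wider than the spread of its 4 values. Jcr4S00192.70 had 151 and 154 CPM in WS, against 145 and 151 CPM in NS, a ratio of 1.06, from a gene of 23 coding exons on scaffold Jcr4S00192 from 29777 to 38100 (minus strand).

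Jcr4S02300.60 had 171 and 167 CPM in WS, against 162 and 172 CPM in NS, a ratio of 1.06, and its M of 0.161 was the lowest of the 401. It has 3 coding exons on scaffold Jcr4S02300 from 18337 to 22829 (plus strand). Jcr4S01232.100 had 123 and 124 CPM in WS, against 117 and 122 CPM in NS, a ratio of 1.06, with 11 coding exons on scaffold Jcr4S01232 from 41558 to 47751 (plus strand). Jcr4S02159.10 had 70.2 and 73.2 CPM in WS, against 69.8 and 74.1 CPM in NS, a ratio of 1.06. It is marked as a partial model, with 18 coding exons on scaffold Jcr4S02159 from 838 to 10457 (minus strand) and a coding length of 5689 bp. Jcr4S00294.90 had 39.4 and 42.1 CPM in WS, against 41.0 and 40.8 CPM in NS, a ratio of 1.07, and had the fewest reads of the 10 (148 and 100 reads in WS and 268 and 54 reads in NS). Its 18 coding exons extend over 15386 bp on scaffold Jcr4S00294 from 49917 to 65302 (plus strand).

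Jcr4S03530.50, the gene of the 10 with the most reads, had 237.9 and 239 CPM in WS, against 253 and 237 CPM in NS, a ratio of 1.07. It has 5 coding exons on scaffold Jcr4S03530 from 16155 to 19314 (minus strand). Jcr4S00172.80 had 110.1 and 106 CPM in WS, against 109 and 103 CPM in NS, a ratio of 1.07, with 10 coding exons on scaffold Jcr4S00172 from 33104 to 37532 (plus strand). Jcr4S01018.100 had 140.2 and 138 CPM in WS, against 140.1 and 130.1 CPM in NS, a ratio of 1.08, with 5 coding exons on scaffold Jcr4S01018 from 60415 to 64203 (minus strand). The WS and NS values overlapped in 8 of the 10, while the WS values lay above NS in Jcr4S01232.100 and below NS in Jcr4S06887.20. In the latter, the gap between WS replicate 2 and NS replicate 2 was smaller than the last digit printed and within counting error. Over all genes tested, both WS values were above both NS values in 25.7% and below them in 26.8%. The ratio of these same values picked the 10, so nothing is read from their counts. The 5 lowest M values belonged to Jcr4S02300.60, Jcr4S05922.20, Jcr4S02331.20, Jcr4S00172.80 and Jcr4S01232.100. Of these, Jcr4S02331.20 is outside the 10 by ratio. It had 67.6 and 61.9 CPM in WS, against 63.6 and 62.8 CPM in NS, a ratio of 1.09, from 14 coding exons on scaffold Jcr4S02331 from 17209 to 24761 (minus strand).

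**Figure D2:**
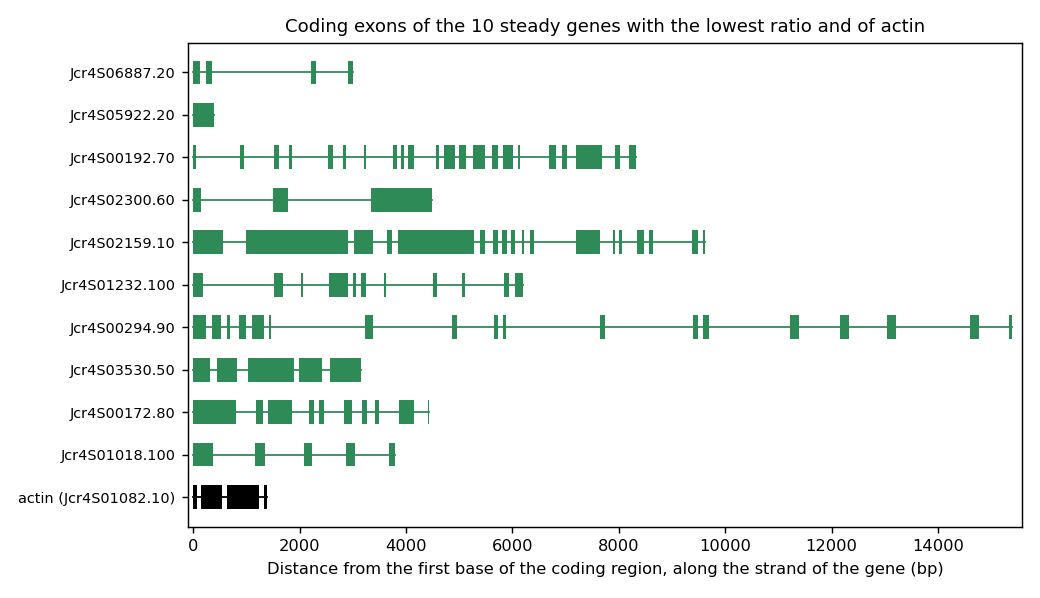
Coding exons (boxes) and introns (lines) of the 10 steady genes with the lowest ratio (green, lowest ratio on top) and of actin (black), drawn to scale in bp from the first base of the coding region along the strand of each gene. The steady genes range in span from 393 bp with 1 exon in Jcr4S05922.20 to 15386 bp with 18 exons in Jcr4S00294.90, while actin spans 1391 bp.

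The 3 members nearest to the limit of 1.4 were Jcr4S04828.30 (97.1 and 69.4 CPM in WS, against 71.7 and 81.7 CPM in NS), Jcr4S00322.20 (43.4 and 41.2 CPM in WS, against 36.3 and 31.0 CPM in NS) and Jcr4S03875.10 (64.7 and 62.7 CPM in WS, against 65.6 and 87.7 CPM in NS), with ratios of 1.398 to 1.399. The 3 genes of the range just outside were Jcr4S00131.70 (95.5 and 76.2 CPM in WS, against 97.4 and 69.6 CPM in NS), Jcr4S01667.40 (69.4 and 55.6 CPM in WS, against 76.0 and 77.9 CPM in NS) and Jcr4S00287.120 (36.7 and 44.6 CPM in WS, against 31.8 and 34.8 CPM in NS), with ratios of 1.401 to 1.402. In Jcr4S00322.20, NS replicate 2 held 41 reads, with a 95% exact Poisson interval of 22.2 to 42.1 CPM, so which side of the limit a gene of this level falls on is within counting error. Outside the range, a ratio under 1.4 was found in 40 of 529 genes with a mean above 300 and in 161 of 11064 genes with a mean below 30.

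A best match and a Mercator functional bin were at hand for 665 genes, of which 279 lay in the range and 17 were steady (6.09% of the 279). These rows are the first part, in order of gene ID, of a longer table. Of these 17, 16 have a best match in another plant, and roles below are those of the matched genes, mostly from Arabidopsis. Protein synthesis held 4 of the 17, from 14 genes in the range (28.6%), with a median ratio of 2.21 over the 14. Regulation of transcription held 3, from 27 genes in the range (11.1%), and RNA processing held 1 from 5. No steady gene was found among the 27 signalling genes of the range, 13 of protein degradation, 13 of miscellaneous enzymes, 10 of cell organisation, 7 of stress, and 4 each of secondary metabolism, hormone metabolism and cell wall. The median ratio over these genes was 3.36 in signalling, 2.95 in protein degradation, 2.75 in miscellaneous enzymes, 2.15 in cell organisation, 4.21 in stress, 15.9 in secondary metabolism, 2.41 in hormone metabolism and 3.18 in cell wall, against 2.65 over all 279 genes. This list of empty groups is not complete. Development and protein targeting (6 genes each in the range) and amino acid and minor carbohydrate metabolism (5 each) also held no steady gene. Their median ratios were 1.87, 2.03, 3.15 and 3.16. The empty groups thus had medians on both sides of that of all 279 genes. These are counts of few genes and were not tested.

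The steady genes of protein synthesis covered a ribosomal protein, initiation factors and a release factor relative. Jcr4S00004.220 matches ribosomal protein S13 of the small ribosomal subunit and had 104 and 99.8 CPM in WS, against 90.1 and 95.3 CPM in NS, a ratio of 1.15. Both WS values were above both NS values. This short gene has 4 coding exons and a coding length of 423 bp on scaffold Jcr4S00004 from 87104 to 88268 (plus strand), and per kb of coding length its mean level was 229.8 CPM. Jcr4S00027.20 matches the eukaryotic release factor 1 family, whose members act when a ribosome ends or stalls in translation. It had 33.3 and 34.1 CPM in WS, against 31.4 and 33.3 CPM in NS, a ratio of 1.09, with 125 and 81 reads in WS and 205 and 44 reads in NS. Of the 17 described genes it had the lowest ratio, and its 19 coding exons lie on scaffold Jcr4S00027 from 1412 to 7181 (minus strand).

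Jcr4S00005.10 matches initiation factor 4A, the RNA helicase that unwinds the 5′ end of mRNAs for ribosome loading and a common reference gene in plants. It had 179 and 135 CPM in WS, against 172 and 162 CPM in NS, a ratio of 1.33. WS replicate 1 was the highest and WS replicate 2 the lowest of the 4 libraries, so the NS values lay between the WS values. The model, with 17 coding exons on scaffold Jcr4S00005 from 3066 to 10528 (plus strand), carries the transposable element note of the deposited annotation in spite of this match. Jcr4S00008.180 matches initiation factor 4B, which assists that helicase, and had 211 and 219 CPM in WS, against 177 and 181 CPM in NS, a ratio of 1.24. Both WS values were above both NS values, and the gene has 3 coding exons on scaffold Jcr4S00008 from 85035 to 90214 (minus strand).

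Chromatin and gene regulation were represented by 4 of the 17. Jcr4S00005.150 matches NAP1;3, a nucleosome assembly protein that carries histones. It had 319.5 and 326 CPM in WS, against 271 and 242 CPM in NS, a ratio of 1.35, with 1201 and 775 reads in WS and 1769 and 320 reads in NS, the most of the 17. Jcr4S00002.340 matches ATXR7, a SET-domain protein required for histone methylation at a flowering gene in Arabidopsis. It had 71.0 and 61.9 CPM in WS, against 52.2 and 52.2 CPM in NS, a ratio of 1.36, the highest of the 17. In both genes the WS values were above the NS values, and they have 12 and 20 coding exons on scaffold Jcr4S00005 from 72654 to 75935 (plus strand) and scaffold Jcr4S00002 from 168568 to 175821 (minus strand).

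Jcr4S00033.190 matches a protein with a PHD zinc finger, a fold that reads histone tails. It had 160.4 and 212 CPM in WS, against 173 and 181 CPM in NS, a ratio of 1.32, and the NS values lay between the WS values. Its model is marked pseudo and partial and overlaps another model on the same strand, so reads could have been shared between them. Jcr4S00009.230 matches MOS1, which regulates the expression of an immune receptor gene in Arabidopsis. It had 227 and 171 CPM in WS, against 217 and 204 CPM in NS, a ratio of 1.33, again with the NS values between the WS values, from 14 coding exons on scaffold Jcr4S00009 from 141531 to 149215 (plus strand).

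Grouped by best match and not by bin, RNA binding and processing were represented by 2 genes, and an XS domain gene is given beside them. Jcr4S00027.120 matches a DEAD-box RNA helicase named for the embryo defect of its Arabidopsis mutant. It had 86.2 and 85.9 CPM in WS, against 73.9 and 99.1 CPM in NS, a ratio of 1.34, so the WS libraries were alike and lay between the NS libraries. Like the initiation factor 4A gene, which is also a helicase, it carries the transposable element note. Jcr4S00017.80 matches a protein with RNA recognition motifs and had 48.4 and 42.9 CPM in WS, against 47.0 and 36.3 CPM in NS, a ratio of 1.33. Jcr4S00033.150 matches a protein with an XS domain and had 35.9 and 42.9 CPM in WS, against 43.4 and 35.5 CPM in NS, a ratio of 1.22. The WS and NS values of these genes overlapped, and NS replicate 2 held 48 reads of Jcr4S00017.80 and 47 reads of Jcr4S00033.150.

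The other described genes belong to transport, cell division, protein modification or no assigned group. Jcr4S00004.60 matches subunit B of the vacuolar proton pump, the V-ATPase that acidifies the vacuole. It had 93.1 and 96.0 CPM in WS, against 107 and 108 CPM in NS, a ratio of 1.16, with both WS values below both NS values, from 14 coding exons on scaffold Jcr4S00004 from 21484 to 26249 (minus strand). Jcr4S00012.70 matches a protein with a DENN domain and WD-40 repeats that takes part in cytokinesis. It had 96.6 and 112 CPM in WS, against 94.4 and 96.8 CPM in NS, a ratio of 1.19, from 25 coding exons over 12148 bp. Jcr4S00034.180 matches a protein with phosphatase and kinase domains and had 88.1 and 95.1 CPM in WS, against 116 and 93.0 CPM in NS, a ratio of 1.32. Jcr4S00007.230 matches the Bax inhibitor-1 family, named after an inhibitor of programmed cell death. It had 124 and 144 CPM in WS, against 110.4 and 123 CPM in NS, a ratio of 1.31, with both WS values above both NS values. Jcr4S00014.90 has a match of unknown function and had 56.9 and 55.1 CPM in WS, against 71.3 and 63.5 CPM in NS, a ratio of 1.29, with both WS values below both NS values. Jcr4S00037.100 has no match and had 35.7 and 26.5 CPM in WS, against 33.7 and 26.5 CPM in NS, a ratio of 1.35. With 134 and 63 reads in WS and 220 and 35 reads in NS it was the gene of the 17 with the fewest reads. The WS and NS values overlapped in 10 of the 17 genes, both WS values were above both NS values in 5 and below them in 2. Over all genes tested, both WS values were above both NS values in 25.7% and below them in 26.8%. The rule used the same values, so nothing is read from the counts of the 17.

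**Figure D3:**
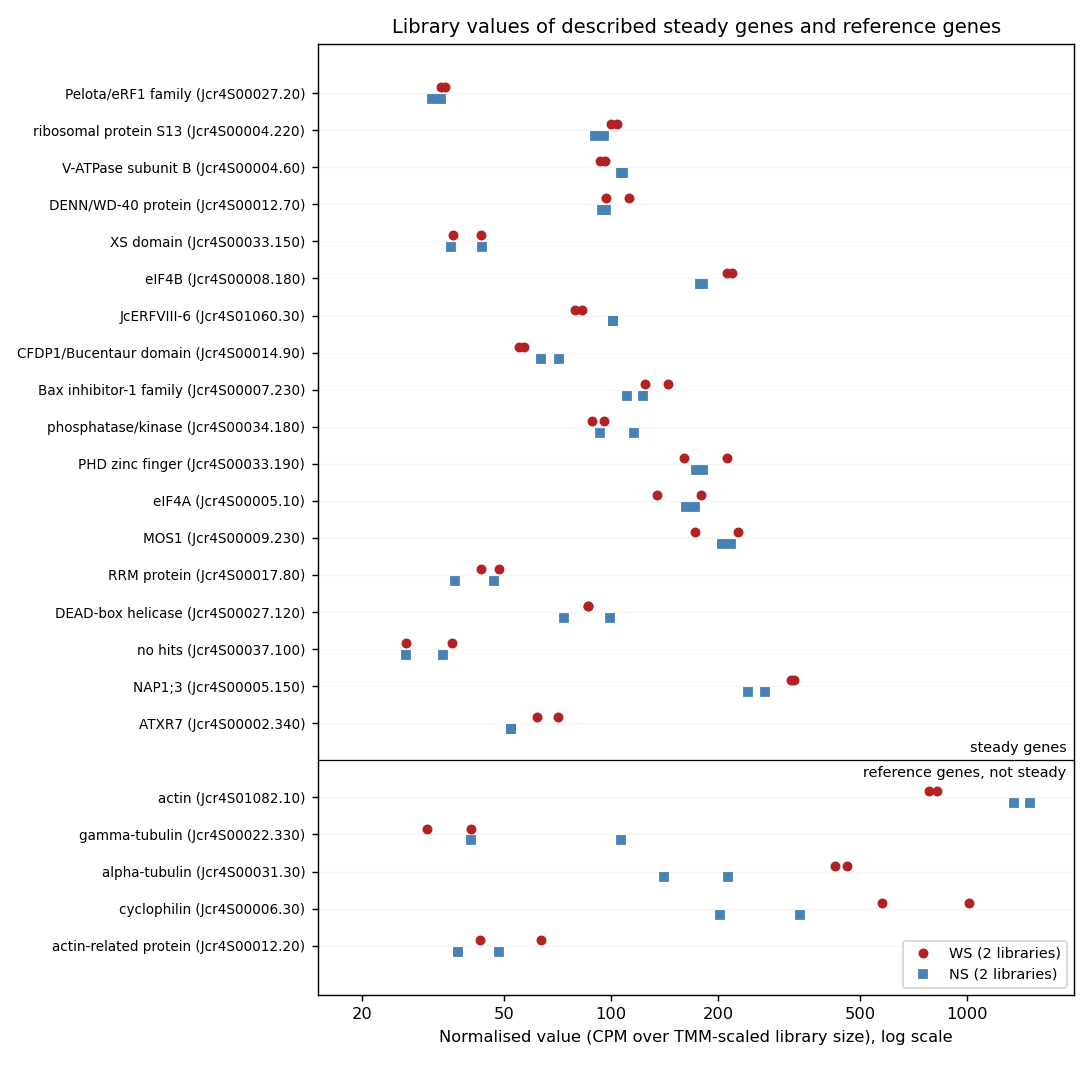
Normalised value (x axis, CPM, log scale) of each described steady gene (upper part, lowest ratio on top) and of actin and the other reference-family genes that were not steady (lower part). Circles are the 2 WS libraries and squares the 2 NS libraries. Points of a steady gene lie within a factor of 1.4, while actin has 779.5 and 825 CPM in WS and 1501 and 1354 CPM in NS.

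One steady gene is listed by the study in the AP2/ERF family. Members of this plant family of transcription factors bind DNA and include regulators of the low-oxygen response. Of the 129 AP2/ERF genes listed in the supplementary tables at hand, 62 were in the deposited table, 22 lay in the range and 1 of the 22, JcERFVIII-6 (Jcr4S01060.30), was steady (4.55%, against 6.89% of all genes of the range). The list at hand holds fewer AP2/ERF genes than the study describes. JcERFVIII-6 had 79.3 and 82.9 CPM in WS, against 101 and 101 CPM in NS (298 and 197 reads in WS and 661 and 134 reads in NS), a ratio of 1.28. Both WS values were below both NS values. The other 21 had ratios of 1.67 (JcERFIII-3) or more, and 3 of them had a library at 0. JcERFVIII-6 lies on scaffold Jcr4S01060 from 16516 to 17714 (minus strand) with 2 coding exons of 38 and 724 bp. The first 60 bases of its listed coding sequence are shown because the reading frame meets a TGA stop (capitals) at codon 13, at bases 37 to 39, across the junction of the exons.
JcERFVIII-6: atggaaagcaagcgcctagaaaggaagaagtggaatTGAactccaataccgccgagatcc
The model carries no pseudo or partial note, and whether the stop lies in the gene or in the model was not tested.

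The rule did not use gene structure. The steady genes had a median of 8 coding exons (quartiles 4 and 13), while all genes of the range had 6 and all genes tested 4. Their median coding length was 1563 bp, against 1341 bp in the range and 1047 bp over all genes tested. The coding region spanned a median of 3807 bp with introns, against 3177 bp in the range and 2293 bp over all. Total intron length had a median of 2397 bp, against 1741 bp and 1124 bp. The longest single exon did not follow this order, with a median of 409 bp in steady genes, 454 bp in the range and 392 bp over all.

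The largest differences between the sets lay at both ends of the exon count. A single coding exon was found in 19 of the 401 steady genes (4.74%), against 11.04% of the range and 16.2% of all genes tested. At the other end, 85 steady genes (21.2%) had 15 or more coding exons, against 13.3% and 7.48%. Read the other way, 2.96% of the 642 single-exon genes of the range were steady, 6.05% of genes with 2 to 4 exons, 6.75% with 5 to 9, 7.83% with 10 to 14 and 11.03% with 15 or more. Gene models are not replicates, and no test was made of these shares. Jcr4S00525.30 had the most coding exons of the steady genes, 54 over 27664 bp on scaffold Jcr4S00525 from 13359 to 41022 (plus strand). It had 214 and 194 CPM in WS, against 203 and 176 CPM in NS, a ratio of 1.22. Jcr4S00155.70 had the longest coding region, 8886 bp in 38 exons on scaffold Jcr4S00155 from 20115 to 41790 (minus strand). It had 213 and 178 CPM in WS, against 209 and 214 CPM in NS, with WS replicate 2 the lowest, a ratio of 1.202.

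**Figure D4:**
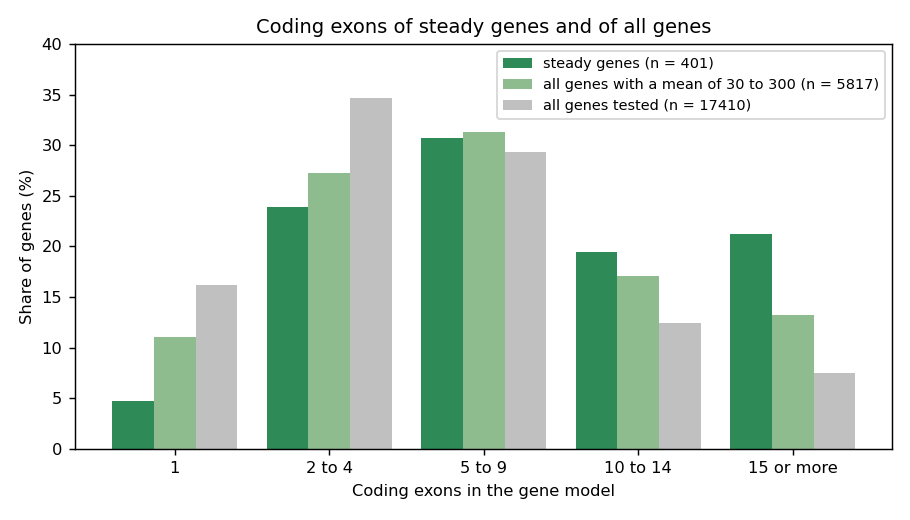
Share of genes (y axis, %) by number of coding exons in the gene model (x axis) for the 401 steady genes, the 5817 genes with a mean of 30 to 300 and the 17410 genes tested. Of the 3 sets, the steady genes have the lowest bar at 1 exon (4.74%) and the highest bar at 15 or more (21.2%).

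The share of steady genes was higher at higher mean levels. It was 5.58% at a mean of 30 to 50 CPM (112 of 2009 genes), 6.31% at 50 to 100, 8.81% at 100 to 200 and 11.03% at 200 to 300 CPM (45 of 408). Counting error is smaller at higher levels, and its part in this order was not tested. Within these 4 classes, in the same order, the steady genes had a median of 7, 7.5, 8.5 and 10 coding exons, while all genes of each class had 6. The median coding length did not keep one order within the classes. It was 1455, 1325, 1703 and 1872 bp in steady genes, against 1272, 1356, 1428 and 1361 bp in all genes, so steady genes had the shorter median at 50 to 100 CPM, the class with the most genes. The share of single-exon genes was also lower among steady genes within each class, from 2.22% to 6.43%, against 10.05% to 11.4%. Per kb of coding length, the mean level of the steady genes had a median of 50.5 CPM, close to the 51.2 CPM of the range, and ran from 6.805 to 716 CPM.

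The notes of the annotation had similar shares among steady genes and in the range. No note was carried by 348 of the 401 (86.8%, against 86.6% of the range and 79.3% of all genes tested). The partial note was carried by 29, the transposable element note by 15 (3.74%, against 3.27% and 3.83%), the pseudo note by 12 and the short note by 10, and a model can carry several. The genes lay on 202 plus and 199 minus strands. Only 3 overlapped another model, all on the same strand as that model: Jcr4S01936.20, Jcr4S00729.30 and the PHD gene Jcr4S00033.190. The nearest other model was a median of 1503 bp away in the 389 steady genes that share a scaffold with one, against 1521 bp in the range.

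The steady genes were spread over 375 scaffolds. On 24 of these lay more than 1, with 4 at most, on Jcr4S00059. Neighbouring models were both steady in 3 cases, which were named after their values were seen. Jcr4S00059.100 and Jcr4S00059.110 are divergent, with 2121 bp between them and ratios of 1.36 each. Jcr4S00580.60 and Jcr4S00580.70 converge with a gap of 2757 bp and ratios of 1.29 and 1.26. Jcr4S05097.10 and Jcr4S05097.20 converge with a gap of 3558 bp and ratios of 1.34 and 1.33. None of the pairs was divergent within 1 kb.

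Which genes count as steady depended on how the libraries were scaled. Plain CPM over the summed counts gave 384 steady genes, of which 229 were among the 401 (57.1% of the 401 and 59.6% of the 384). RLE scaling gave 370, with 321 shared (80.0% of the 401), and upper quartile scaling gave 398, with 367 shared (91.5%). Under all 4 scalings, TMM included, 184 genes (45.9%) remained steady. The deposited values were 1.102 and 1.066 times plain CPM in WS replicates 1 and 2, and 0.935 and 0.911 times in NS replicates 1 and 2. With plain CPM, JcERFVIII-6 and the V-ATPase gene Jcr4S00004.60, whose WS values lay below NS, moved past the limit, with ratios of 1.55 and 1.41. The ratios of the initiation factor 4B gene Jcr4S00008.180 and of NAP1;3, with WS above NS, moved closer to 1, at 1.08 and 1.15.

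All 10 genes with the lowest ratio remained steady under each of the 4 scalings. The scalings differ too little to move ratios this close to 1 past the limit, so this outcome was fixed in advance. Of the 17 described genes, 7 did: the genes matching ribosomal protein S13, initiation factor 4B, the release factor 1 family, NAP1;3, the PHD protein, the DENN and WD-40 protein and the RNA recognition motif protein. The initiation factor 4A gene had a ratio of 1.46 with plain CPM and did not. Actin was not steady under any of the 4 scalings, with a ratio of 2.27 for plain CPM. This was fixed in advance as well, since its mean lay far above the range.

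**Figure D5:**
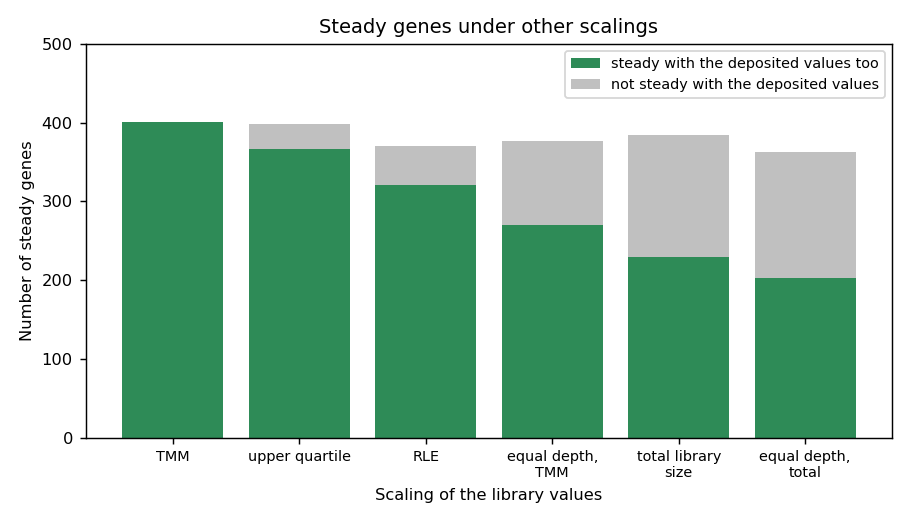
Number of steady genes (y axis) when the same rule was applied to library values under other scalings or after thinning all libraries to equal depth (x axis). The green part of a bar is shared with the 401 genes of the deposited values; it is 229 genes with total library size and 203 genes at equal depth without TMM, while the whole bar stays between 363 and 401 genes.

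Since a reference gene is used as a divisor, the steady genes were also expressed relative to actin in each library. Actin over the geometric mean of the steady genes was 9.54 and 10.4 in WS, against 18.8 and 16.8 in NS. Divided by actin, the WS mean of the 401 genes was a median of 1.797 times the NS mean (1.32 to 2.40), and 1 of them kept a ratio of highest to lowest under 1.4. Undivided, the same median was 1.01. These are arithmetic consequences of the library values of actin above and add no independent evidence on it.

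Other genes of families used as references were looked up in the same 665 rows. They held 5 genes of tubulin, cyclophilin, actin-related protein and initiation factor 4A, of which only the initiation factor 4A gene was steady, and no gene of elongation factor 1, glyceraldehyde-3-phosphate dehydrogenase, core histones or protein phosphatase 2A. None of the other 4 passed edgeR's quasi-likelihood test (2 had an unadjusted p under 0.05) or its likelihood ratio test. The cyclophilin gene, 1 of the 4, passed with DESeq2. Of all 17410 genes, 760 passed the quasi-likelihood test, where 3459 had an unadjusted p under 0.05. The likelihood ratio test called 1986 and DESeq2 1695. The nearest of the other 4 to the limit was Jcr4S00012.20, matching a nuclear actin-related protein of chromatin remodelling. It had 42.8 and 63.6 CPM in WS, against 37.2 and 48.4 CPM in NS, a ratio of 1.71. Its WS and NS values overlapped.

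Tubulins, the subunits of microtubules, and cyclophilin, a protein folding enzyme, also lay outside the limit. The alpha-tubulin gene Jcr4S00031.30 had 424 and 459.6 CPM in WS, against 140.4 and 213 CPM in NS, a ratio of 3.27. Both WS libraries were above both NS libraries, and edgeR gave a log2 difference of 1.32 ± 0.44 (SE, edgeR's adjusted p = 0.131). The gamma-tubulin gene Jcr4S00022.330 had 40.4 and 30.3 CPM in WS, against 40.4 and 107 CPM in NS, a ratio of 3.52, with NS replicate 2 apart from the other 3 libraries. The cyclophilin gene Jcr4S00006.30 had 576 and 1013 CPM in WS, against 339.9 and 203 CPM in NS, a ratio of 5.001. Its log2 difference was 1.55 ± 0.49 (SE, edgeR's adjusted p = 0.115), with both WS libraries above both NS libraries. The cyclophilin gene passed with DESeq2 (adjusted p = 0.0408) and in edgeR without the low-count filter (adjusted p = 0.0308). Without WS replicate 1, edgeR's adjusted p was 0.000281 for cyclophilin and 0.0258 for alpha-tubulin, and over the 13 alternative fits it ran up to 0.606 and 0.419. A p above the threshold at 2 libraries per group does not show that the levels were alike.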

How the data were processed

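The authors trimmed and filtered Ion Proton reads of poly(A) mRNA, mapped them with TMAP to release 4.5 of the Jatropha genome and counted them per gene model. The deposited counts cover 57437 gene models; HTSeq and edgeR are named as tools by the submitters, without a version. The deposited table of 17410 genes holds a signal per library, which equals CPM over TMM-scaled library sizes, computed by the authors, and was used to choose the members. Its other columns hold the authors' own comparison (fold change, mean level, likelihood ratio, p-value and false discovery rate) and were not used. The sources used here do not say whether strand was used in counting or where reads with several matches went, and near-identical copies or overlapping models may therefore share reads. Gene structure was taken from the deposited annotation, whose coordinates (release 4.5, counted from 1) cover coding exons only. The RefSeq table at hand matched 0 of the gene IDs, so descriptions are best matches from 665 rows of the supplementary tables.

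WS was compared with NS by edgeR 4.0.16 in R 4.3.3 (quasi-likelihood test, two-sided, TMM, no covariate) over the genes that reached 1 CPM in at least 2 libraries (Benjamini-Hochberg adjusted, threshold 0.05). DESeq2 1.42.0, the likelihood ratio test, other scalings and filters, equal depth, a replicate block and each library left out were alternatives, and Python 3.11.15 with pandas 2.3.3 and matplotlib 3.10.9 made summaries and figures. The SE of an edgeR log2 fold change was derived as its absolute value over the square root of the test statistic. With 2 libraries against 2, the smallest two-sided permutation p is 0.333. The members and lists were chosen with earlier results of these data known. Named genes are actin, the steady genes with a row or an AP2/ERF entry in the supplementary tables at hand, the 10 lowest ratios, the 5 lowest M, the 3 genes on each side of the limit, the members with the most exons and the longest coding region, and genes of common reference families in those rows. Some items that this rule would name are not reported here.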

Additional observations from a re-analysis of the deposited data

How the results depend on the processing

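The number of steady genes was within 1.5 times 401 under every scaling, both other mean ranges and equal depth, where every library was thinned once at random to the smallest total (363, or 377 with TMM scaling of the thinned counts, which was added after seeing the data, and 203 and 270 of them shared). It followed the limit, with 211 genes at a ratio under 1.3, 604 under 1.5 and 1823 under 2. With only 3 libraries left the rule is easier to meet, and the number was 946 without WS replicate 1, 857 without WS replicate 2, 742 without NS replicate 1 and 964 without NS replicate 2. The median number of coding exons of the steady genes was 7 to 9 under all 15 settings. None of the steady genes passed under any of the 13 alternative fits. The rule chose them from the same values, so nothing is read from their counts here or with the replicate block below. Over all genes, 760 passed, against 1963 with no filter on low counts, 1986 with the likelihood ratio test, 1695 with DESeq2 and 439 at equal depth, which also lowers power. Without a WS library 1179 (without replicate 1) or 2186 (without replicate 2) passed, and without either NS library 0 passed edgeR's quasi-likelihood test (unadjusted, 2926 and 1823 had p under 0.05), the lone library being assumed to vary like the others. The cause of these moves was not tested. With the replicate number as a block, 1684 genes passed and neither actin nor any steady gene did. The labels do not say that a number marks a shared batch, and the correlation of the deviations of same-numbered libraries was 0.0867 over genes, so the libraries were not treated as pairs. The methods of the study name more than 1 growing season and the labels only 1. No source used here ties a library to a season, and a part of the season in the spread between libraries was not tested. The lowest count of a member was 35 reads, in NS replicate 2, and counting error there limits how finely ratios near 1.4 can be ordered.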
